A study of Arabidopsis thaliana with 12 samples.

Results

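The 6 genes described here are AT4G27280, STZ (AT1G27730), AT5G10695, AT1G05575, AT2G01300 and AT1G15010, a set named for rapid responses to touch, calcium and stress. They were taken by symbol or locus from the 13355 genes that have a probe set of their own on the Affymetrix array, and each is measured by 1 probe set. STZ and AT4G27280 were taken for what they encode, and the others were chosen by their large difference in log2 value between mbd11 and wild type. The choice had no numeric threshold. Because it used mbd11 and wild-type values, the mbd11 levels of the 6 genes are given as a description, with no test.

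The series holds 12 arrays, 3 for each of 4 genotypes of Arabidopsis thaliana ecotype Col-0: wild type and the T-DNA insertion mutants mbd4, mbd6 and mbd11. All seedlings were 10 days old and grown on MS medium, with no treatment named, and RNA came from whole seedlings. The disrupted genes encode proteins of the methyl-CpG-binding domain family. Whether each of the 3 binds methylated DNA was not measured here. Insertion alleles are not named in the labels, each genotype is 1 mutant as far as the labels go, and the transcripts of the 3 disrupted genes were not analysed here. In RNA from whole seedlings, a transcript made in more cells and a transcript made at a higher level per cell cannot be told apart.

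Plant cells answer touch, wounding, cold and salt within minutes by a rise of free calcium in the cytosol. EF-hand proteins bind that calcium and pass the signal on to kinases and transcription factors, and a first wave of genes, many of them for zinc finger, ERF and WRKY factors, is transcribed briefly. AT4G27280 encodes a small EF-hand protein that binds calcium. STZ, also called ZAT10, encodes a C2H2 zinc finger repressor of transcription that is induced by salt, cold, drought and touch. The other 4 genes go by locus only, and no role is given to them here.

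The 3 mbd11 arrays were unlike the remaining 9. Their highest correlation with an array of another genotype was 0.907 to 0.960, and that of the other arrays was 0.987 to 0.990. The lowest correlations within a genotype were 0.936 to 0.94 on the mbd11 arrays and 0.990 to 0.995 on the others. The interquartile range of log2 values was 2.83 in mbd11 replicate 2, 3.63 and 3.58 in the other mbd11 arrays, and 3.83 to 3.94 elsewhere. The 3' minus 5' difference of plant control transcripts, a measure of RNA integrity and labelling, was 1.98 to 2.58 in mbd11, 2.08 in mbd4 replicate 3 and 1.08 to 1.5 on the other arrays. Within genotypes, the median SD over probe sets was 0.353 for mbd11 and 0.112 to 0.134 for the others. Of 15 root markers 4 were measured: in mbd11 PYK10 and NAI2 fell by 1.73 and 0.90, EXPA18 rose by 1.08 and EXPA7 differed by 0.17 without passing. The 3 measured of 11 nuclear photosynthesis markers, RCA, LHCB4.1 and PRK, fell by 0.65 to 1.24 in mbd11, where 19.7% of all probe sets were called lower. In mbd4 and mbd6 none of these 7 markers passed limma's test against wild type, and at an unadjusted p under 0.05 the counts were 0 in mbd4 and 3 in mbd6, where 11% and 16.5% of all probe sets had such a p. The part of array quality and tissue makeup in the results on mbd11 was not tested.

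All levels below are log2 intensities described as RMA output, and a change is a difference of log2 means. Whether mbd11 replicate 2, with its narrow interquartile range of 2.83, was normalized together with the other arrays is not known. AT4G27280 had overlapping levels in wild type and mbd4. Its values were 9.06, 9.20 and 9.22 on the wild-type arrays and 9.14, 9.22 and 9.20 on the mbd4 arrays. On the mbd6 arrays they were 10.73, 10.59 and 10.52, and on the mbd11 arrays 12.98, 11.98 and 12.97. The mbd4 values lay inside the range of wild type on all 3 arrays, the mbd6 values lay above both, and the mbd11 values lay above all others, with replicate 2 the lowest of the 3.

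STZ followed the same order of genotypes with more scatter. The wild-type arrays read 7.10, 7.16 and 7.29 and the mbd4 arrays 7.62, 7.77 and 7.08. The mbd6 arrays read 8.69, 8.56 and 8.46 and the mbd11 arrays 9.47, 8.02 and 9.29. Here mbd4 replicate 3 was the lowest array of all, mbd6 lay clear of wild type and mbd4, and mbd11 overlapped mbd6 because its replicate 2 fell under all 3 mbd6 arrays.

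AT5G10695 and AT1G05575 were higher than wild type on every mutant array. AT5G10695 was at 6.45, 6.78 and 6.58 in wild type and 7.19, 7.23 and 7.50 in mbd4. Its mbd6 values were 7.68, 7.47 and 7.29, and those of mbd11 were 9.55, 9.75 and 9.34. The mbd4 and mbd6 arrays overlapped each other and lay between wild type and mbd11. AT1G05575 was at 4.86, 4.74 and 4.71 in wild type and 5.47, 5.76 and 6.55 in mbd4. Its mbd6 values were 6.52, 6.02 and 6.40, and those of mbd11 were 7.57, 7.19 and 7.71. Its mbd4 and mbd6 arrays overlapped as well, again between wild type and mbd11. AT5G10695 was the only one of the 6 genes for which mbd11 replicate 2 was the highest array of its genotype. The highest mbd4 value of AT1G05575 belonged to replicate 3, the mbd4 array with the 3' minus 5' difference of 2.08.

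AT2G01300 and AT1G15010 had low levels everywhere except in mbd11. For AT2G01300, 23.6% to 31.2% of the probe sets on the wild-type arrays were dimmer, and for AT1G15010 33.1% to 37.5% were, so small differences among their low values rest on dim signal. The wild-type level of AT1G05575 was as dim, with 34.3% to 36.1% of probe sets below it, and its fold changes rest on that level. AT2G01300 was at 4.39, 3.96 and 3.84 in wild type and 4.63, 4.57 and 4.36 in mbd4. Its mbd6 values were 4.74, 4.28 and 4.33, and those of mbd11 were 7.48, 6.04 and 7.07. Wild type, mbd4 and mbd6 overlapped, and mbd11 lay above all of them. AT1G15010 was at 4.57, 4.99 and 4.84 in wild type and 5.61, 5.34 and 5.53 in mbd4. Its mbd6 values were 5.07, 5.08 and 4.90, and those of mbd11 were 8.01, 7.09 and 7.74. Here mbd11 again lay above all other arrays. The mbd4 arrays lay above both wild type and mbd6, which overlapped each other.

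**Figure D1:**
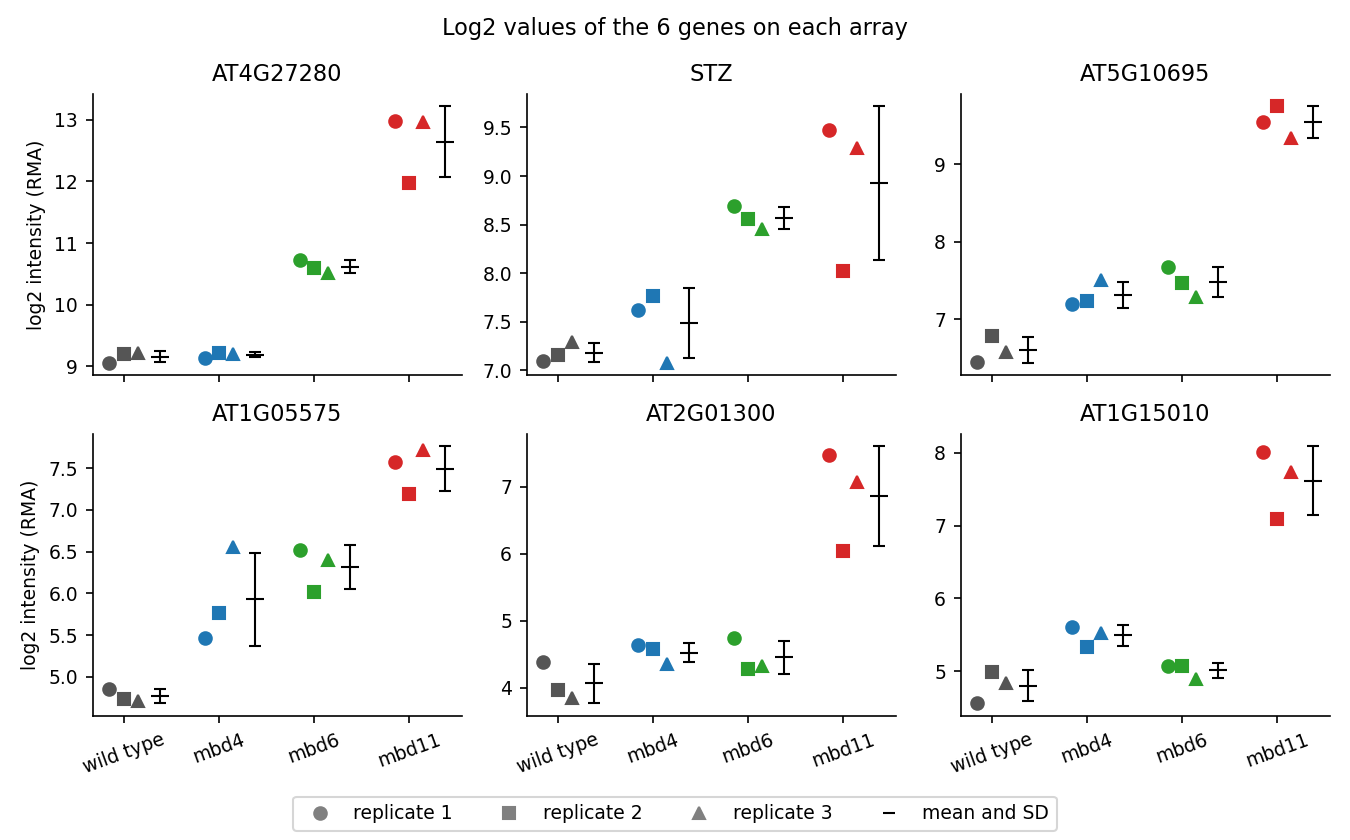
Log2 intensity of each gene (vertical axes, a separate scale for each gene) on the 12 arrays, by genotype; symbols mark the replicate, and the black bar with whiskers is the mean and SD of 3 arrays. AT4G27280 steps up in mbd6 and again in mbd11, while STZ steps up in mbd6 and its mbd11 arrays overlap those of mbd6. AT5G10695 and AT1G05575 lie above wild type in mbd4 and mbd6 alike. AT2G01300 and AT1G15010 rise by far the most in mbd11, though the mbd4 arrays of AT1G15010 also lie above wild type.

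The question the design asks of these genes is which of the disruptions goes with a change of their transcripts. In mbd6, 4 of the 6 were higher than wild type and 0 were lower at an adjusted p under 0.05 in limma's moderated test, where 4% of all 22746 probe sets were called higher and 2.91% lower. The arrays of those 4 did not overlap wild type, as for 16.5% of all probe sets in this direction. The calcium-binding gene AT4G27280 rose by 1.45 (SE 0.22, adjusted p = 0.00167), a 2.74-fold difference, from 9.16 (SD 0.09, n = 3) to 10.61 (SD 0.11, n = 3). AT1G05575 rose by 1.54, or 2.91-fold (SE 0.25, adjusted p = 0.00216), from 4.77 (SD 0.08) to 6.31 (SD 0.26). AT5G10695 rose by 0.87, or 1.83-fold (SE 0.16, adjusted p = 0.00521), from 6.61 (SD 0.17) to 7.48 (SD 0.20). These 3 passed under each of the 18 alternatives run, with adjusted p at most 0.0349. The filter at a mean of 6, which is among them, counted the mbd11 arrays. AT1G05575 reached that mean only with its mbd11 level of 7.49, so its pass there is no added support.

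The zinc finger gene STZ rose by 1.39 in mbd6, or 2.62-fold (SE 0.31, adjusted p = 0.016), from 7.18 (SD 0.10) to 8.57 (SD 0.11). Its change stayed between 1.33 and 1.44 under all alternatives. The adjusted p was over the threshold when wild-type replicate 1, 2 or 3 was left out (0.0696, 0.0614 and 0.053), when mbd6 replicate 1 or 2 was (0.0729 and 0.0563) and with values under 4 raised to 4 (0.0509), and it ran from 5.2e-06 to 0.0729 over all alternatives. The spread in these tests is pooled over the 4 genotypes, and the SD of STZ was 0.79 in mbd11.

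AT2G01300 and AT1G15010 did not pass in mbd6. AT2G01300 differed by 0.39 (95% interval -0.26 to 1.03, adjusted p = 0.675) and AT1G15010 by 0.21 (-0.24 to 0.66, adjusted p = 0.796), and the arrays of both genotypes overlapped. Over the 6 genes the median change in mbd6 was 1.13, and over all probe sets it was -0.03.

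In mbd4, 2 of the 6 genes were called higher and 0 lower, beside 1.53% of all probe sets called higher and 0.769% lower. AT1G05575 rose by 1.15, or 2.22-fold (SE 0.25, adjusted p = 0.0272), from 4.77 (SD 0.08) to 5.92 (SD 0.56). AT5G10695 rose by 0.70, or 1.63-fold (SE 0.16, adjusted p = 0.0405), from 6.61 (SD 0.17) to 7.31 (SD 0.16). Both were higher than wild type on 3 of 3 mbd4 arrays, and both calls were fragile. For AT1G05575 the call ended if wild-type replicate 1, 2 or 3 was dropped (0.0912, 0.108 and 0.131), if mbd4 replicate 2 or 3 was dropped (0.0721 and 0.0779) or with values under 4 raised to 4 (0.0729), over a range of 0.00113 to 0.131; without mbd4 replicate 3 its change was 0.84. AT5G10695 did not pass with any single wild-type array dropped (0.208, 0.0718 and 0.171) or any single mbd4 array (0.0924, 0.117 and 0.176). It also missed with the 3' minus 5' covariate (0.0597), median centring (0.0655) and quantile normalization (0.072), over a range of 0.00194 to 0.208.

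The other 4 genes did not pass in mbd4. AT4G27280 differed from wild type by 0.03, with a 95% interval of -0.45 to 0.51 (adjusted p = 1). STZ differed by 0.30 (-0.36 to 0.97, adjusted p = 0.909) and AT2G01300 by 0.46 (-0.19 to 1.10, adjusted p = 0.72). AT1G15010 differed by 0.69 (0.24 to 1.14, adjusted p = 0.135), with mbd4 above wild type on 3 of 3 arrays; 3 of the 6 genes were separated in this way, as were 12.8% of all probe sets. It passed once the mbd11 arrays were left out (adjusted p = 0.00367), and also without mbd11 replicate 2 alone (0.00673), with only the 6 arrays compared (0.0105) and with weights from each genotype's own spread (0.00239), over a range of 0.00239 to 0.489. The median change of the 6 in mbd4 was 0.57, beside -0.03 over all probe sets. The comparisons of mbd4 and mbd6 with wild type share the 3 wild-type arrays, which the choice of the genes also used.

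**Figure D2:**
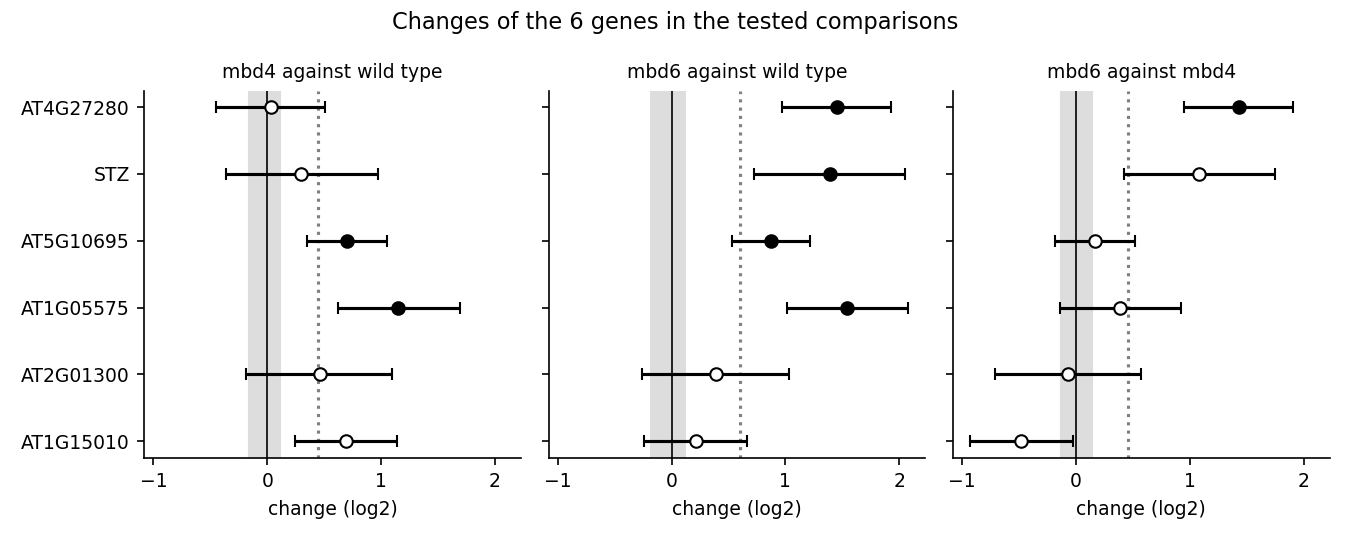
Log2 change of each gene in the 3 tested comparisons (horizontal axis), with 95% intervals; filled points passed at an adjusted p under 0.05 and open points did not. The grey band spans the middle 50% of all probe sets and the dotted line marks their 95th percentile, which is 0.45 for mbd4 and 0.60 for mbd6 against wild type and 0.46 for mbd6 against mbd4.

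The difference of mbd6 and mbd4 means uses no wild-type or mbd11 array, but its error is pooled over all 12 arrays and the genes were chosen with earlier results known, so it is not independent of the choice. In this comparison 1 of the 6 genes was called higher, beside 0.95% of all probe sets, and 0 were called lower, beside 1.1%. That gene was AT4G27280, higher in mbd6 by 1.43, or 2.69-fold (SE 0.22, adjusted p = 0.00605), which passed under each of 18 alternatives (adjusted p at most 0.0364). In order of rising change it stood at place 35 from the top among 22746 probe sets.

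STZ was higher in mbd6 than in mbd4 by 1.08 (95% interval 0.42 to 1.75, adjusted p = 0.105) without overlap of the arrays, a separation that 14% of all probe sets showed in this direction. It passed without the mbd11 arrays (adjusted p = 0.000923), without mbd11 replicate 2 (0.00118), with only the 6 arrays compared (0.00547) and with weighted arrays (0.000511), over a range of 0.000511 to 0.378. AT1G15010 ran the other way, lower in mbd6 than in mbd4 with a change of -0.48 (-0.93 to -0.03, adjusted p = 0.362). Its arrays did not overlap either, as for 13.9% of all probe sets in this direction, and it passed under the same 4 alternatives (adjusted p 0.0262 to 0.0473). AT5G10695, AT1G05575 and AT2G01300 differed by 0.17 (-0.18 to 0.52), 0.39 (-0.14 to 0.92) and -0.07 (-0.71 to 0.57).

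In mbd11 the 6 genes were far above wild type, as the choice required for most of them. AT4G27280 was higher by 3.48, or 11.2-fold, the largest rise among all probe sets of 1 gene. AT5G10695, AT1G15010, AT2G01300 and AT1G05575 were higher by 2.94, 2.81, 2.80 and 2.72 and stood at places 4, 7, 8 and 10 of that order. STZ, taken for its identity, was higher by 1.74, or 3.35-fold, at place 102. For all 6 the mbd11 and wild-type arrays did not overlap, as for 25% of all probe sets in this direction.

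Leaving out mbd11 replicate 2, the changes were 3.82 in AT4G27280, 2.20 in STZ, 2.84 in AT5G10695, 2.87 in AT1G05575, 3.21 in AT2G01300 and 3.07 in AT1G15010. With the 3' minus 5' difference of each array as a covariate, they were 3.26, 1.92, 2.82, 1.99, 2.85 and 2.66 in the same order. AT1G05575 was therefore the gene whose mbd11 value moved the most with that measure. Set against mbd6 rather than wild type, mbd11 was higher by 2.03 in AT4G27280, 2.07 in AT5G10695, 1.18 in AT1G05575, 2.41 in AT2G01300 and 2.60 in AT1G15010, and by 0.36 in STZ.

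The mbd4 and mbd6 changes can be set beside those of mbd11, with no test of the differences between genes. As a percentage of the log2 change in mbd11, the change in mbd6 was 79.5 for STZ, 56.7 for AT1G05575, 41.7 for AT4G27280 and 29.7 for AT5G10695, while it was 13.8 for AT2G01300 and 7.59 for AT1G15010. In mbd4 the percentage was 42.4 for AT1G05575, 24.6 for AT1G15010, 23.9 for AT5G10695, 17.4 for STZ, 16.3 for AT2G01300 and 0.798 for AT4G27280. These ratios share the wild-type arrays and are a description, and some of the changes behind the small ones moved when a single array was left out. The change of STZ in mbd4, 0.30, was 0.16 without mbd4 replicate 2 and 0.51 without replicate 3, and that of AT1G15010 in mbd6, 0.21, was 0.10 without wild-type replicate 1. The change of AT4G27280 in mbd4, 0.03, lay between -0.02 and 0.06 with any single wild-type or mbd4 array left out, the lowest without wild-type replicate 1. AT2G01300 in mbd6, at 0.39, was at 0.24 without mbd6 replicate 1.

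**Figure D3:**
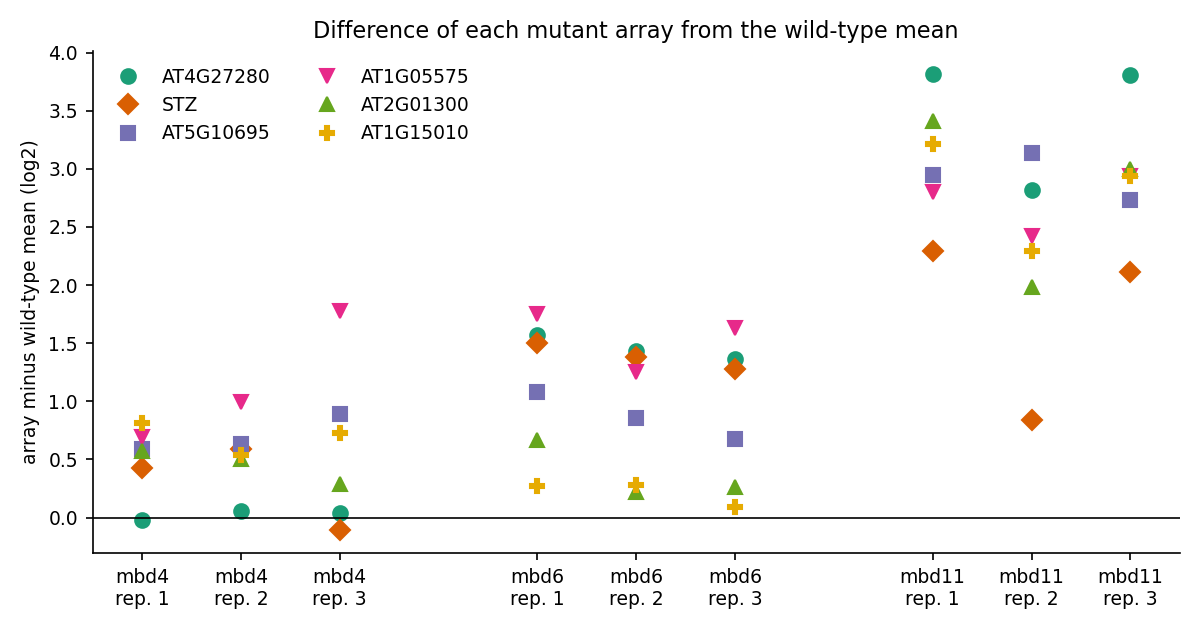
Log2 value of each gene on the 9 mutant arrays minus its mean in wild type (vertical axis), by array; the horizontal line is the wild-type mean. Medians over the 6 genes are 0.51 to 0.58 on the mbd4 arrays, 0.98 to 1.29 on the mbd6 arrays and 3.08, 2.35 and 2.94 on mbd11 replicates 1, 2 and 3, and AT5G10695 is the gene that does not dip on mbd11 replicate 2.

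Pearson correlations among the 6 genes over the 12 arrays were 0.67 to 0.97 with a median of 0.88 over the 15 pairs, and 0.72 to 0.97 without mbd11 replicate 2. These arrays share 4 genotype means, of which mbd11 is far from the rest, so the values describe the genotypes more than separate samples, and no p is given. Most of the 6 were chosen for their mbd11 rise, so high values over arrays that include mbd11 follow in part from the choice. Over the 9 arrays without mbd11 the median was 0.60 with a range of -0.16 to 0.94. The highest of these were those of AT4G27280 with STZ (0.94) and AT5G10695 with AT1G05575 (0.92), and the lowest that of AT4G27280 with AT1G15010 (-0.16). The closest pair over 12 arrays, AT2G01300 with AT1G15010 at 0.97, was at 0.44 over the 9.

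After the mean of each genotype was subtracted, the 15 correlations over 12 arrays ran from -0.49 to 0.90 with a median of 0.28. Without mbd11 they ran from -0.73 to 0.78 with a median of -0.02, and 7 of 15 were positive. AT4G27280, STZ, AT2G01300 and AT1G15010 had correlations of 0.66 to 0.90 with each other after subtraction over the 12 arrays, where all 4 were low on mbd11 replicate 2.

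**Figure D4:**
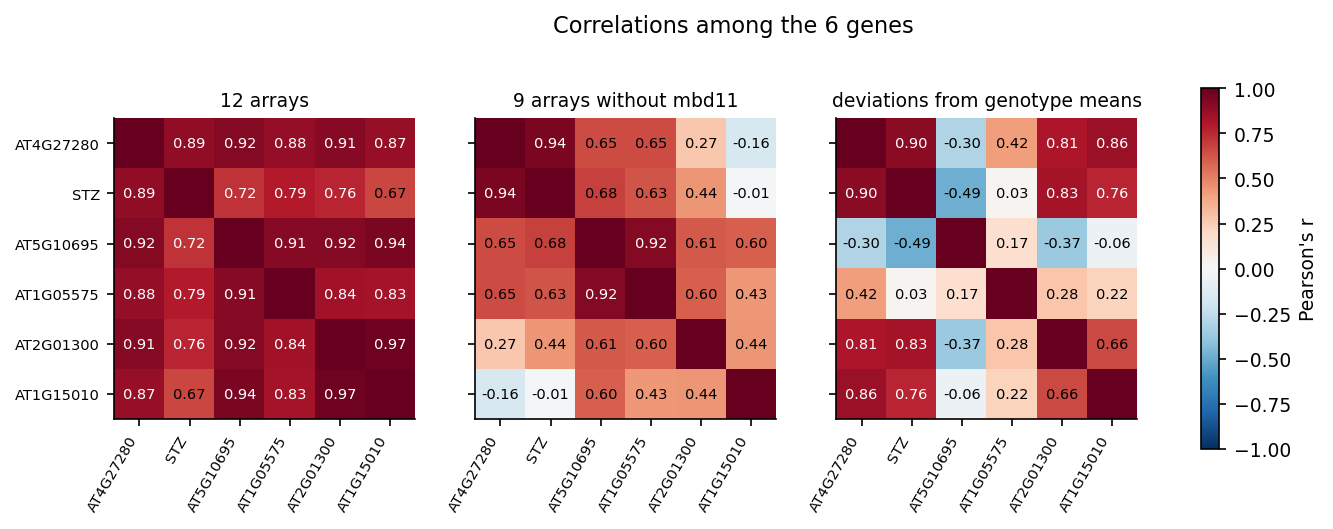
Pearson correlations between pairs of the 6 genes over all 12 arrays, over the 9 arrays without mbd11, and of deviations from genotype means over 12 arrays; colour runs from -1 (blue) to 1 (red). The high values of the first panel, 0.67 to 0.97, spread to -0.16 to 0.94 without mbd11 and to -0.49 to 0.90 among deviations.

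The mean profile of the 6 genes over the 12 arrays is shaped by the choice of genes with large mbd11 rises. It was compared with 8265 probe sets of 1 gene whose values spanned at least 1 log2 unit over those arrays. The nearest was AT1G07135, with r = 0.993 and changes of 0.35, 0.58 and 2.19 in mbd4, mbd6 and mbd11. The next were AT3G48550, AT2G30930, BIGYIN, AT4G10970, RALFL22, P1R3 and VPS2.1, with r from 0.987 to 0.977. BIGYIN encodes a fission factor of mitochondria and peroxisomes, RALFL22 a secreted signalling peptide of the RALF family and VPS2.1 a subunit of the ESCRT membrane machinery. Without mbd11 replicate 2 AT1G07135 was again the nearest (r = 0.994), and AT3G48550, AT2G30930 and VPS2.1 were among the nearest 8 again.

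The median r of the probe sets searched was 0.336 and 235 of them reached 0.9. Without mbd11 replicate 2 the median was 0.260 and 390 reached 0.9. Over the 9 arrays without mbd11 they were -0.152 and 239. That search kept the same probe sets, picked by their span over all 12 arrays, so mbd11 values still shaped which genes were searched. The nearest 8 over those 9 arrays were other genes: AT1G55450, AT5G63680, AT2G29670, AT1G10140, AT5G61590, AT3G57780, AT2G23680 and SGT1A, with r from 0.993 to 0.985. AT1G55450, the nearest, differed from wild type by 0.78 in mbd4, 1.52 in mbd6 and 0.42 in mbd11. AT5G63680 and AT3G57780 had mean changes of -0.33 and -0.73 in mbd11. The 2 lists of 8 had no gene in common. The 6 genes, which make up the profile, had r to it over 12 arrays of 0.847 in STZ and 0.930 to 0.973 in the others. Over the 9 arrays their r was 0.360 in AT1G15010, 0.637 in AT2G01300 and 0.829 to 0.942 in the others. The profile over the 9 arrays therefore stands poorly for AT1G15010 and AT2G01300.

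A wider list of 25 touch and calmodulin-like genes had 14 with a probe set of their own. These were EXO, KIC and calmodulin-like (CML) genes, while the listed touch genes TCH2, TCH3, TCH4, XTH23 and XTH24 were not measured. In mbd6, 4 of the 14 rose and 0 fell, beside 4% of all probe sets called higher, and the median change was 0.52 against -0.03 over all. EXO, which encodes an extracellular protein of brassinosteroid-promoted growth, rose by 2.26, or 4.80-fold (adjusted p = 0.000102), from values of 8.18, 7.98 and 8.38 to 10.68, 10.22 and 10.43. CML10, a calmodulin-like gene, rose by 1.10 (adjusted p = 0.00196), from 11.10, 11.01 and 10.91 to 12.24, 11.96 and 12.12. CML46 rose by 1.14 (adjusted p = 0.00596) and CML42 by 0.61 (adjusted p = 0.0446); CML42 no longer passed with wild-type replicate 2 or 3 left out (0.17 and 0.212), with any single mbd6 array left out (0.16, 0.125 and 0.112) or with the floor of 4 (0.0504), over a range of 0.0011 to 0.212. CML10, CML46 and CML42 are named because they complete the count, after their values were seen. Without the mbd11 arrays 7 of the 14 were called higher in mbd6, where that fit called 9.1% of all probe sets higher.

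In mbd4 none of the 14 passed limma's test, with a median of 0.30 and changes from -0.22 to 0.78. At an unadjusted p under 0.05 there were 4, all higher, beside 5.75% of all probe sets. Without the mbd11 arrays 2 were called higher, beside 5.15% of all probe sets in that fit. EXO and CML10 were higher in mbd6 than in mbd4 as well, by 1.76 (adjusted p = 0.00171) and 1.18 (adjusted p = 0.00397), and these were the 2 calls of the list in that comparison, beside 0.95% of all probe sets called higher.

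In mbd11, 10 of the 14 rose and 0 fell, beside 20.4% of all probe sets called higher, with a median of 0.94 against 0.12 over all. EXO rose by 1.84 (adjusted p = 7.3e-05). CML38 rose by 1.46 (adjusted p = 0.0068) and CML41 by 1.42 (adjusted p = 0.00716). KIC, which encodes an EF-hand protein that binds a kinesin-like motor, rose by 1.31 (adjusted p = 3.4e-05), from 10.22, 10.27 and 10.18 to 11.56, 11.31 and 11.73. With the 3' minus 5' difference as a covariate 4 of the 14 were called higher, beside 11.1% of all probe sets in that fit, and CML38 and CML41 differed by 0.80 and 1.24 without passing (adjusted p = 0.251 and 0.119; ranges over alternatives 9.8e-05 to 0.251 and 0.000177 to 0.119). Without mbd11 replicate 2, 13 of the 14 were called higher, beside 22.9% of all probe sets in that fit. CML10, which rose in mbd6, differed by 0.28 in mbd11 (adjusted p = 0.196). The spread in these limma tests is pooled over the 4 genotypes, and the median SD was 0.353 in mbd11 and 0.112 to 0.134 in the others. The main fit can therefore understate the error of mbd11. Over all alternatives the adjusted p in mbd11 was at most 0.00409 for EXO and 0.00337 for KIC.

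**Figure D5:**
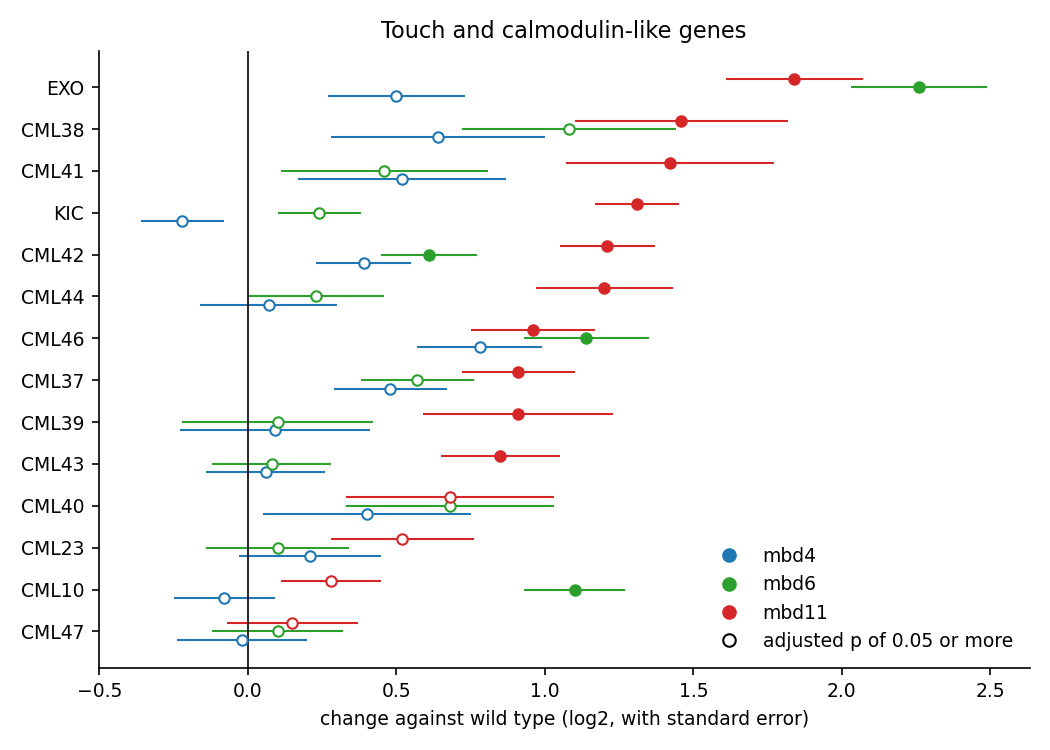
Log2 change against wild type (horizontal axis) of the 14 measured touch and calmodulin-like genes in each mutant, with standard errors from the limma fit; filled points passed at an adjusted p under 0.05. In mbd11 10 points are filled and in mbd6 4, those of EXO, CML46, CML10 and CML42, while the mbd4 points run from -0.22 to 0.78 and are open.

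Other lists had few measured genes. Of 9 zinc finger genes related to STZ only ZAT5 was measured; it differed by -0.24 in mbd4 (adjusted p = 0.743) and 0.36 in mbd6 (adjusted p = 0.3) and rose by 0.71 in mbd11 (adjusted p = 0.00464), a call lost with the 3' minus 5' covariate (0.153) and with weighted arrays (0.0541; 0.000504 to 0.153 over all alternatives). Of 36 rapidly induced transcription factor genes 4 were measured, and 1 was called higher in mbd4, 1 in mbd6 and 2 in mbd11, beside 1.53%, 4% and 20.4% of all probe sets. WRKY6 differed by 0.14, 0.01 and -0.42 in mbd4, mbd6 and mbd11, and ERF017 by -0.16, -0.12 and 0.41, none of which passed. The gene of WRKY53, a stress and senescence factor, was higher than wild type in each mutant. It rose by 1.01 for mbd4 (adjusted p = 0.0237), by 1.42 for mbd6 (adjusted p = 0.00142) and by 1.69 for mbd11 (adjusted p = 7.6e-05). Its mbd4 call did not hold with wild-type replicate 1, 2 or 3 left out (0.0898, 0.0859 and 0.128), with mbd4 replicate 1 or 3 left out (0.118 for each) or with the floor of 4 (0.0951), over a range of 0.000192 to 0.128. WRKY22, a factor of early defence signalling, rose by 1.41 in mbd11 (adjusted p = 0.000212) and differed by 0.69 in mbd6 (adjusted p = 0.0681), which passed without the mbd11 arrays (0.000416), with mbd11 replicate 1 or 2 left out (0.00427 and 0.011), with only the 6 arrays compared (0.000762) and with weighted arrays (0.000164; up to 0.235).

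Of 29 genes for rapid stress signalling and turnover 3 were measured, all for ubiquitin ligases of immune signalling, and 0 were called higher in mbd4, 1 in mbd6 and 2 in mbd11, beside the same shares of all probe sets. At an unadjusted p under 0.05 the mbd4 count was 1. PUB22 differed by 0.49, 0.36 and -0.09 in mbd4, mbd6 and mbd11 without passing (adjusted p = 0.661, 0.707 and 0.826). PUB23 rose by 1.09 in mbd11 (adjusted p = 0.000388). PUB24 rose by 0.68 in mbd6 (adjusted p = 0.024), which did not hold with wild-type replicate 1, 2 or 3 left out (0.0873, 0.0965 and 0.0735) or with mbd6 replicate 1 or 2 left out (0.11 and 0.0584; 0.000903 to 0.11 over all alternatives). PUB24 also rose by 0.46 in mbd11 (adjusted p = 0.0389), and missed under 9 of 13 alternatives (0.0169 to 0.47). Among these were the fits lacking wild-type replicate 1, 2 or 3 (0.0942, 0.108 and 0.0729) and mbd11 replicate 3 (0.0877). Of 48 genes for calcium decoding and transport only the calmodulin-binding factor genes CAMTA4, CAMTA5 and CAMTA6 were measured. None of them passed limma's test in any mutant, and their changes lay between -0.38 and 0.23. At an unadjusted p under 0.05 there was 1, CAMTA6, lower in mbd4.

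The protein-coding genes beside the 6 on their chromosomes, in the RefSeq order of TAIR10.1, number 12, of which 7 were measured. In mbd4 and mbd6 none of the 7 passed limma's test, and their changes ran from -0.43 to 0.22. At an unadjusted p under 0.05 there were 0 in mbd4 and 1 in mbd6. In mbd11 2 of the 7 were called higher, a share near the 20.4% of all probe sets. AT5G10700, beside AT5G10695, rose by 1.20 (adjusted p = 0.000157) and AT4G27270, beside AT4G27280, by 0.85 (adjusted p = 0.00143).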

How the data were processed

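Biotin-labelled aRNA of whole seedlings, made by a 3' Affymetrix protocol per the labels, was hybridised to 12 arrays, 3 for each genotype. The deposited values are log2 intensities that the authors made with RMA, and the submitters' processing notes name R 2.11. Whether all 12 arrays were normalized together is not known. The number of arrays limits the precision. After 64 control probe sets were left out, 22746 remained. The annotation gave 1 gene to 13513 of them, several to 503 and none to 8730, and RefSeq (TAIR10.1) gave a locus for 13436 of the 13513.

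All 12 arrays entered a single limma fit that estimated the mean of every genotype, with moderation of the variances (residual degrees of freedom 8, prior 4.43). Two-sided p-values were adjusted by Benjamini-Hochberg over all 22746, with a threshold of 0.05. Alternatives were single arrays left out, other sets of arrays, a replicate block, weights by genotype spread, the 3' minus 5' covariate, median centring, quantile normalization, a filter at a mean of 6 and a floor of 4. The members, lists and rules were chosen with earlier results of these data known. The rule named up to 4 called genes per list by size of change, the brightest probe set standing for a gene, and the 8 genes of highest r. The alternatives for the lists and for r were added after the data were seen. The fit was tested on simulated data in which all genotypes had the same spread, so that test does not cover the wider spread of mbd11. Sequences were not used here. Software was R 4.3.3 with limma 3.58.1, and Python 3.11.15 with numpy 2.4.6, pandas 2.3.3 and matplotlib 3.10.9.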

Additional observations from a re-analysis of the deposited data

How the results depend on the processing

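With only the 6 arrays compared, without the mbd11 arrays and with arrays weighted by genotype spread, the probe sets called came to 2004, 2212 and 2334 in mbd4 (523 with all 12 arrays), to 4535, 4106 and 4795 in mbd6 (1572), and to 1779, 2470 and 2506 for mbd6 against mbd4 (467). In mbd11 they came to 5100 with the 6 arrays, 5393 with weights and 5829 with the 3' minus 5' covariate (9141). Leaving out 1 array gave 259 to 1464 in mbd4, 807 to 3155 in mbd6 and 157 to 1638 for mbd6 against mbd4, the highest each time without mbd11 replicate 2. Of the 6 genes, 2 were called in mbd4, but 1 with the replicate block, the covariate, median centring, quantile normalization or the floor of 4, and 0 to 3 with 1 array left out. For mbd6 against mbd4, 1 was called, but 3 with the 6 arrays, without the mbd11 arrays or with weights, and 1 to 3 with 1 array left out. In mbd6 the count was 3 or 4 throughout. Of the 14 measured touch and calmodulin-like genes, 0 were called higher in mbd4. With the 6 arrays, without mbd11 and with weights the counts were 4, 2 and 3, and with 1 array left out 0 to 1. In mbd6 the same 3 settings each gave 7 in place of 4, and in mbd11 the covariate gave 4 and the filter at a mean of 6 gave 3 in place of 10, the filter because fewer genes were tested. Where not given, the cause was not tested. The sign of AT4G27280 in mbd4 turned without wild-type replicate 1 (-0.02; -0.02 to 0.06 with 1 array left out) and with the covariate (-0.01), and that of AT2G01300 for mbd6 against mbd4 without mbd6 replicate 2 (0.01; -0.22 to 0.01). Same-numbered arrays deviated with correlations of -0.38 to 0.117, so the numbers were not taken as pairs. Differently numbered arrays reached 0.507, for mbd4 replicate 3 with a wild-type array. What such arrays share was not tested. With the replicate block AT5G10695 in mbd4 had an adjusted p of 0.0743, CML42 in mbd6 0.0546 and PUB24 in mbd11 0.0603, and no other call named here changed. AT2G01300 and AT1G15010 were under the filter at a mean of 6, and AT1G05575 was over it only with the mbd11 arrays counted.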
